A study of Mus musculus with 16 samples.

Results

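The genes described here are those of the mouse major histocompatibility complex (MHC, named H2 in the mouse) and of antigen presentation. A gene was taken when its symbol began with H2- and the deposited table gave it the biotype protein_coding, which held for 36 of 41 H2- symbols, or when it was B2m, Cd74, Ciita, Nlrc5, Tap1, Tap2, Tapbp, Psmb8, Psmb9, Psmb10, Cd1d1 or Mr1. These were 48 of the 45777 genes in the table, and 41 of them lie on chromosome 17. By role, 33 genes belong to MHC class I (the chains H2-K1 and H2-D1, 23 other chains of the Q, T and M families, and 8 genes of assembly and peptide supply). A further 11 belong to class II and 2 encode MHC-like molecules (Cd1d1 and Mr1). The last 2 are H2-Ke6, an enzyme gene of the H2-K region with no part in presentation, and H2-Ea-ps.

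The tissue was the epididymal white fat of male mice, a visceral depot that lies next to the epididymis. A-LTA4HOE mice (OE here), which carry extra leukotriene A4 hydrolase, were set beside their control mice (Ctrl), and every mouse ate a diet with 60 kcal% fat from 4 weeks of age, so no group had another diet. The 4 groups were Ctrl and OE at 8 weeks of age after 4 weeks of diet, and Ctrl and OE at 20 weeks of age after 16 weeks of diet, with 4 libraries each. The series title calls the overexpression adipocyte-specific, while the promoter of the transgene, the strain and its H2 haplotype were not given in the sources used here. Age, time on the diet and any batch that follows them cannot be told apart. Lta4h, the overexpressed gene, stood at 239 to 427 CPM (counts scaled to a common library size, with TMM factors) in the 8 OE libraries and at 79.4 to 104 CPM in the 8 Ctrl libraries, which matches the labels. Total counts per library ran from 33626901 to 67576994. Epididymal duct transcripts (7 markers, summed) reached 3683 CPM in Ctrl library 4 at 8 weeks and 2422 CPM in OE library 2 at 8 weeks, and were 163 CPM or lower in the other libraries, with Lcn5 and Lcn9 at 0 in all 8 libraries of 20 weeks. Nothing in the labels says more of the replicates than separate numbers, so p-values measure the spread between these libraries.

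Class I molecules sit on nearly every nucleated cell. A heavy chain such as H2-K1 or H2-D1 pairs with beta-2 microglobulin (B2m) and displays peptides that the proteasome cuts in the cytosol and the transporter Tap1 and Tap2 carries into the endoplasmic reticulum. Class II molecules are made mainly by macrophages, dendritic cells and B cells. Their alpha and beta chains travel with the invariant chain Cd74 to endosomes, where H2-DM exchanges its remnant for peptides from engulfed protein. Nlrc5 is the transcriptional coactivator of class I genes and Ciita is that of class II genes.

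Promoter sequences of both classes are shown as a description. Mouse promoters from RefSeq on GRCm38.p6 (250 bases before to 50 after a transcription start) were matched to 39 of the 48 genes, 30 of them among those tested. The first search was for letters of the X box, to which the RFX complex binds (CNAG, then NN, AC, NN and ATG without a gap, N being any base), followed by ATTGG, the Y box to which NF-Y binds, with 30 to 40 bases from start to start, on either strand. That pair stood in 0.0183% of 32851 promoters (6 of them), of which 4 belonged to class II genes, and it was in 4 of 8 class II genes and 0 of 20 class I genes that had a promoter and were tested. The X letters alone stood in 0.715% of promoters and ATTGG alone in 37.4%. ATTGG was in 16 of the 20 class I genes and in 8 of the 8 class II genes. The second search was for the NF-kappaB site of the class I enhancer A, whose letters are the capitals in the H2-K1 sequence printed here, on either strand. It stood in 0.0304% of promoters (10 of them), in 3 of 20 class I genes and in 0 of 8 class II genes. These letters were chosen after the promoters had been viewed, so the split between the classes is no test. Other spellings of the X box were not searched, so a gene without a match is not shown to lack one. A match describes the sequence only. The matches printed here do not overlap one another. In the class II sequences the capitals mark the X letters and then the Y letters.
H2-Eb1, chr17:34305768-34305817, plus strand: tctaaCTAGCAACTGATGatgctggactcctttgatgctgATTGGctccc
H2-Eb2, chr17:34325535-34325584, plus strand: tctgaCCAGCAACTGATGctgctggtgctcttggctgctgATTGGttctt
H2-DMb1, chr17:34153089-34153139, plus strand: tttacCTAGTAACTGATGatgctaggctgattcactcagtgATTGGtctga
H2-Ob, chr17:34238810-34238857, plus strand: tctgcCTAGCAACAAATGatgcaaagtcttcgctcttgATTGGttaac

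In the class I sequences the capitals mark the enhancer A site, and H2-K1 and H2-D1 shared 59 of the 60 bases printed.
H2-K1, chr17:34000419-34000478, minus strand: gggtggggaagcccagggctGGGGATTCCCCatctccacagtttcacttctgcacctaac
H2-D1, chr17:35262903-35262962, plus strand: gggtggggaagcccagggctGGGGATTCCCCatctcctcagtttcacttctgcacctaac
H2-Q6, chr17:35424657-35424716, plus strand: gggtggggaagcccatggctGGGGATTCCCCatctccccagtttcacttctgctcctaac

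The genes as a group were among the abundant transcripts of the fat pad. The deposited TPM values adjust for transcript length and bring each library to a fixed sum, and need not follow the counts gene by gene. On that scale the 48 genes made up 1.31% ± 0.409 of all transcripts in Ctrl mice at 8 weeks, 1.35% ± 0.230 in OE mice at 8 weeks, 1.78% ± 0.255 in Ctrl mice at 20 weeks and 1.88% ± 0.192 in OE mice at 20 weeks (SD, n = 4 in each). B2m had the highest mean over the 16 libraries, 4347 TPM, followed by H2-D1 at 2470, Cd74 at 1922, H2-K1 at 1886, H2-Aa at 1354, H2-Ab1 at 1151 and H2-Eb1 at 662 TPM. The spread between libraries was as wide as many of these steps, since H2-K1 had an SD of 512 TPM and Cd74 of 694 TPM over the 16 libraries, and the means of Cd74 and H2-K1 lay closer than that. Cd1d1, which presents lipids to natural killer T cells, came next at 307 TPM. The coactivators were rare transcripts, with Ciita at 15.6 and Nlrc5 at 12.8 TPM.

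Within each class a few chains carried nearly all of the level. H2-K1 and H2-D1 made up 77.9% to 86.5% of the summed class I chain TPM in every library. H2-Aa, H2-Ab1 and H2-Eb1 made up 92.3% to 95.4% of the summed class II chain TPM. The other class I chains with a mean above 100 TPM were H2-T23, the Qa-1 chain that engages NKG2A receptors (213 TPM), H2-Q4 (176 TPM), H2-T22 (143 TPM) and H2-Q7 (107 TPM). At the other end, 10 genes had no count in any of the 16 libraries: H2-M1, H2-M10.1 to H2-M10.6, H2-M11, H2-T3 and H2-Ea-ps. A count of 0 allows up to 3 counts, or 0.0444 to 0.0892 CPM by library, from counting error alone. The remaining 38 genes passed the filter on low counts and were tested, 24 of class I, 11 of class II and 3 of neither class.

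Class II rose in Ctrl mice between 8 and 20 weeks, while most class I genes were not called. In edgeR's quasi-likelihood test (adjusted p under 0.05 by Benjamini-Hochberg over all 19189 genes tested), 12 of the 38 tested members were higher at 20 weeks and 4 were lower, in a comparison in which 40.9% of all genes were called, 19.6% higher and 21.3% lower. Of the 11 class II genes, 9 were higher and 0 lower, with a median log2 change of 0.98. Of the 24 class I genes, 3 were higher and 1 lower, with a median of 0.21. The median over all genes tested was -0.05. In bulk tissue fewer cells of a type and less RNA per cell cannot be told apart, here or in the results that follow.

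H2-Aa (chromosome 17, 34282744 to 34287823), the alpha chain of the I-A molecule, was at 584, 335, 420 and 562 CPM in Ctrl mice at 8 weeks and at 1289, 740, 928 and 781 CPM at 20 weeks. Every 20-week library lay above every 8-week library, with library 1 highest at 20 weeks and library 2 lowest at 8 weeks. The log2 change was 0.98 ± 0.26 (SE, adjusted p = 0.0101), a 1.97-fold rise. H2-Ab1 (chromosome 17, 34263227 to 34269418), the beta chain that pairs with it, went from 615, 326, 424 and 511 CPM to 1126, 692, 817 and 672 CPM. The groups did not overlap, and the same libraries were highest and lowest. H2-Ab1 rose by 0.82 ± 0.25 on the log2 scale (adjusted p = 0.0207).

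H2-Eb1 (chromosome 17, 34305867 to 34316674), the I-E beta chain, was at 447, 237, 333 and 423 CPM at 8 weeks and at 977, 523, 658 and 530 CPM at 20 weeks. It rose by 0.90 ± 0.28 (adjusted p = 0.0193), again without overlap. Its partner, the I-E alpha chain, is named H2-Ea-ps in the table and H2-Ea in RefSeq, and had no count. The I-A and I-E chains kept nearly constant proportions: the TPM of H2-Aa over that of H2-Ab1 was 1.01 to 1.27 in the 16 libraries, and that of H2-Eb1 over H2-Ab1 was 0.520 to 0.640.

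Cd74, the invariant chain, was at 1092, 590, 809 and 904 CPM in Ctrl mice at 8 weeks and at 2037, 1220, 1538 and 1202 CPM at 20 weeks. The groups did not overlap, and the log2 change was 0.82 ± 0.25 (adjusted p = 0.0191). Its TPM stood at 1.57 to 1.82 times that of H2-Ab1 in all 16 libraries. Ciita was at 40.6, 18.9, 25.8 and 37.9 CPM at 8 weeks and at 69.6, 52.7, 73.5 and 51.4 CPM at 20 weeks. All 20-week values lay above all 8-week values, and Ciita rose by 1.01 ± 0.26 (adjusted p = 0.00856).

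The loading chains did not all move alike. H2-DMb1 (chromosome 17, 34153191 to 34160229), a beta chain of the peptide exchange factor H2-DM, rose by 1.21 ± 0.25 (adjusted p = 0.00197), from 66.7, 31.4, 49.0 and 45.3 CPM to 129, 93.3, 113 and 108 CPM. H2-DMa, the alpha chain, had a log2 difference of 0.47 (adjusted p = 0.106), and H2-DMb2, a second beta chain, one of 0.20 (adjusted p = 0.613). The ratio of H2-DMa to H2-DMb1 TPM was 0.558 to 0.677 in Ctrl libraries at 8 weeks and 0.307 to 0.391 at 20 weeks, and in OE libraries it was 0.241 to 0.840 and 0.202 to 0.353, where the ages overlapped. From CPM in place of TPM, chosen after seeing the data, the ages overlapped in neither genotype, with 0.867 to 1.06 and 0.500 to 0.610 in Ctrl and 0.915 to 1.13 and 0.476 to 0.558 in OE libraries. In library 1 at 8 weeks H2-DMa had 2178 counts and 56.1 TPM in Ctrl mice, but 2243 counts and 21.8 TPM in OE mice. The TPM of H2-DMa thus did not follow its counts. Of all 50-base words in the longest coding transcript of H2-DMb1, 27.2% also occur in H2-DMb2, so part of the reads of these 2 genes could have been assigned to either. H2-Aa, H2-Ab1, H2-Eb1, H2-Eb2, H2-DMa, H2-Oa and H2-Ob shared no such word with another H2 gene.

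H2-Oa and H2-Ob, the chains of the H2-DM inhibitor H2-O that B cells are known for, and H2-Eb2 were rare transcripts led by 1 library. H2-Ob was at 3.03, 2.40, 4.13 and 3.84 CPM in Ctrl mice at 8 weeks and at 16.1, 4.6, 4.90 and 4.28 CPM at 20 weeks. Library 1 stood far above the others of its group, and the groups did not overlap, by a narrow margin (4.13 against 4.28). H2-Ob rose by 1.16 ± 0.38 (adjusted p = 0.0265), and by 0.46 with an adjusted p of 0.128 when Ctrl library 1 at 20 weeks was left out. H2-Eb2, a second I-E type beta chain, was at 0.505, 0.324, 0.567 and 1.31 CPM and then at 4.08, 1.11, 1.61 and 1.47 CPM, with library 4 at 8 weeks above library 2 at 20 weeks. H2-Eb2 rose by 1.59 ± 0.54 (adjusted p = 0.0292) and H2-Oa by 1.30 ± 0.48 (adjusted p = 0.0439). Without that library H2-Eb2 stood at 1.03 (adjusted p = 0.124) and H2-Oa at 0.89 (adjusted p = 0.158). The H2-Ob call was also lost without Ctrl library 1 or 2 at 8 weeks, and the H2-Eb2 call without Ctrl library 1, 2 or 3 at 8 weeks. Both were lost in a fit of only the 2 groups compared (adjusted p = 0.0796 for H2-Ob and 0.0537 for H2-Eb2). The H2-Oa call was lost without any of 8 of the 16 libraries (Ctrl 1, 2 and 3 and OE 4 at 8 weeks, Ctrl 1 and 3 and OE 1 and 3 at 20 weeks, adjusted p 0.0533 to 0.158), and with upper quartile scaling (adjusted p = 0.0565) or no filter on low counts (adjusted p = 0.0715).

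**Figure D1:**
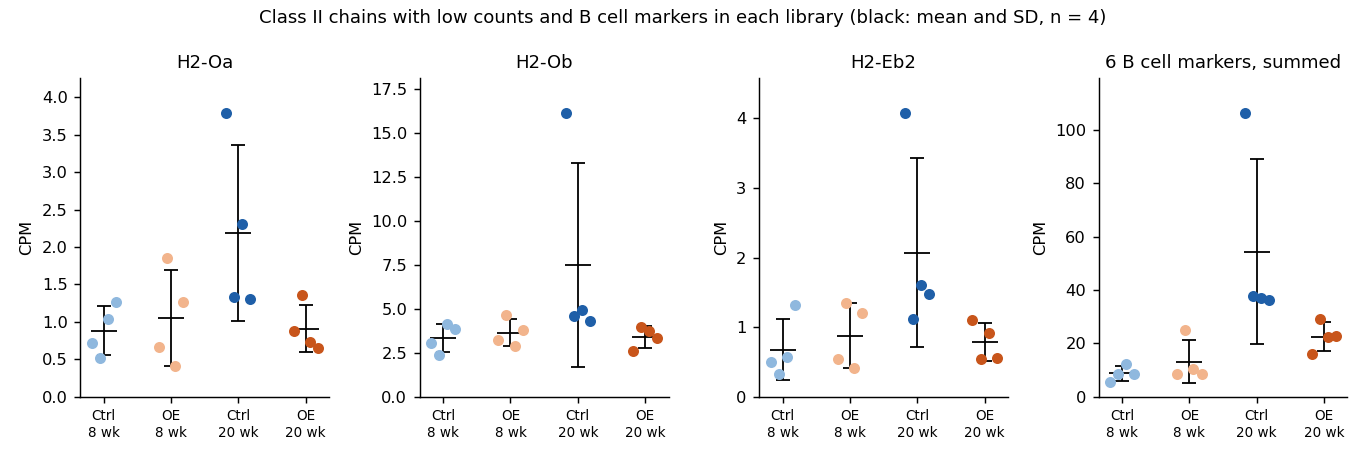
CPM of H2-Oa, H2-Ob and H2-Eb2 and of 6 B cell markers summed, in each library of the 4 groups (points), with the mean and SD of 4 libraries in black. Ctrl library 1 at 20 weeks is the highest point in each panel, with 16.1 CPM of H2-Ob and 106.5 CPM of B cell markers.

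The B cell markers moved with these chains. All 6 (Ms4a1, Cd79a, Cd79b, Pax5, Blk and Cd22) rose in Ctrl mice, with a median log2 change of 2.27, and none was at 0 in a whole group. In OE mice the 6 had a median log2 change of -0.63, from -1.03 to 2.73, with Cd22 alone called. Their sum was 5.6 to 12.4 CPM in Ctrl mice at 8 weeks, 8.38 to 25.0 in OE mice at 8 weeks, 36.4 to 106.5 in Ctrl mice at 20 weeks and 15.8 to 29.2 CPM in OE mice at 20 weeks. The highest value belonged to Ctrl library 1 at 20 weeks, the library that also led H2-Ob. That library led the T cell markers as well, with a sum of 44.5 CPM against 11.4 to 14.7 in the others of its group. The part of B cells in the class II result was not tested.

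The number of class II genes called in Ctrl mice rested on single libraries. It was 3 without Ctrl library 1 at 20 weeks and 3 without Ctrl library 2 at 8 weeks, with Ciita, H2-Aa and H2-DMb1 called both times. It was 6 without Ctrl library 1 at 8 weeks and 6 without Ctrl library 3 at 8 weeks. With 2 surrogate variables in the fit none of the 11 was called, the log2 difference of H2-Aa being 0.56 (adjusted p = 0.396) and that of H2-DMb1 1.03 (adjusted p = 0.0972). With DESeq2 the number was 9 and with limma voom 10. The number of genes higher over the whole set tested moved as well, from 3770 of 19189 with every library kept. Without the libraries named it was 3308 of 19676, 3057 of 19619, 3741 of 19722 and 3122 of 19574 in turn. It was 1083 of 19189 with 2 surrogate variables, 4039 of 19087 with DESeq2 and 5151 of 19189 with limma voom.

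The 2 main class I chains were not called in Ctrl mice by edgeR with every library kept. H2-K1 (chromosome 17, 33996012 to 34000619) was at 1558, 741, 996 and 1629 CPM at 8 weeks and at 1715, 1377, 1477 and 1743 CPM at 20 weeks. The groups overlapped, since libraries 1 and 4 at 8 weeks lay above 2 of the 20-week libraries. The log2 difference was 0.36 ± 0.21 (adjusted p = 0.180). H2-D1 (chromosome 17, 35263094 to 35267497) was at 2074, 1294, 1441 and 2005 CPM and then at 2376, 2000, 2032 and 2199 CPM, a difference of 0.34 ± 0.16 (adjusted p = 0.0960) with overlapping groups. Limma voom called both, H2-K1 at 0.69 (adjusted p = 0.00296) and H2-D1 at 0.53 (adjusted p = 0.00201). By edgeR H2-D1 was also called without Ctrl library 1 at 8 weeks (0.45, adjusted p = 0.0374). The same held without Ctrl library 4 and OE library 2 at 8 weeks (0.42, adjusted p = 0.0457). H2-D1 shares 12.0% and H2-K1 8.79% of their 50-base words with other H2 genes.

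B2m, the light chain common to all class I molecules, was at 2103, 1244, 1392 and 2223 CPM at 8 weeks and at 1987, 1453, 1475 and 1851 CPM at 20 weeks. The 20-week values lay within the range of the 8-week values, with a log2 difference of -0.04 ± 0.19 (adjusted p = 0.883). The TPM of B2m over that of H2-K1 and H2-D1 together was 1.13 to 1.22 in Ctrl and 1.06 to 1.25 in OE libraries at 8 weeks. It was 0.834 to 0.964 in Ctrl and 0.834 to 0.914 in OE libraries at 20 weeks, so the ages did not overlap in this ratio.

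None of the 8 genes of class I assembly and supply was called in Ctrl mice by edgeR, with 0 at an unadjusted p under 0.05 and a median log2 change of -0.04. Nlrc5 was at 46.3, 33.4, 36.4 and 66.7 CPM and then at 49.1, 40.2, 39.1 and 50.3 CPM, a difference of -0.03 ± 0.23 (adjusted p = 0.919). Tap1, a chain of the peptide transporter, was at 40.9, 28.1, 36.7 and 88.5 CPM and then at 54.5, 42.2, 46.7 and 45.2 CPM, a difference of -0.04 ± 0.30 (adjusted p = 0.919). Psmb8, a catalytic subunit of the immunoproteasome, was at 51.5, 33.1, 45.7 and 95.9 CPM and then at 72.3, 62.2, 66.4 and 56.9 CPM, a difference of 0.19 ± 0.26 (adjusted p = 0.594). Ctrl library 4 at 8 weeks was the highest of the 16 libraries for all 3 genes, and it is the library with the most epididymal duct transcripts. Without it Psmb8 rose by 0.57 (adjusted p = 0.0388), class I had 9 genes higher instead of 3, and class II kept 9 higher. Over all genes 3816 of 19459 were then higher, against 3770 of 19189 with every library kept. The part of Ctrl library 4 at 8 weeks in the class I result, beyond these values, was not tested.

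The class I genes that were called in Ctrl mice had low levels. H2-M2, a class I chain of the M region, rose most of all members, from 22, 19, 18 and 29 counts at 8 weeks to 175, 71, 143 and 130 counts at 20 weeks. In CPM these were 0.584, 0.410, 0.408 and 0.392 against 5.07, 1.92, 3.59 and 3.54, a log2 change of 2.97 ± 0.36 (adjusted p = 7.59e-05) without overlap. H2-T-ps, named a pseudogene but carried as protein_coding in the table, rose by 1.31 ± 0.31 (adjusted p = 0.00462), from 1.59, 0.648, 1.38 and 1.54 CPM to 3.62, 3.66, 3.42 and 2.18 CPM. Of the 50-base words of the far more abundant H2-T23, 12.9% also occur in H2-T-ps, so reads of H2-T23 could have been assigned to it. H2-M3, which presents N-formylated peptides, rose by 0.70 ± 0.22 (adjusted p = 0.0202). The H2-M3 call was lost without Ctrl library 2 or 3 at 8 weeks or Ctrl library 1 or 3 at 20 weeks, with adjusted p between 0.0506 and 0.0631.

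H2-M9, another M-region chain, fell by 2.63 ± 0.75 (adjusted p = 0.0142), from 9, 58, 27 and 86 counts to 4, 9, 0 and 6 counts. Counts this low leave wide counting error, and the groups overlapped in CPM, where library 1 at 8 weeks (0.239) lay below library 2 at 20 weeks (0.244). H2-Q2 had a larger log2 difference, -3.23 ± 1.38, with an adjusted p of 0.0738 and library values from 0 to 283 counts at 8 weeks. H2-Q4, H2-Q6, H2-Q7, H2-T22 and H2-T23 overlapped between the ages and were not called, with adjusted p from 0.160 to 0.707. Of their 50-base words 16.5%, 27.0%, 31.5%, 44.6% and 20.6% in turn also occur in other H2 genes, so their values may include reads of those. H2-Q10 (-0.60, adjusted p = 0.202) and Psmb10 (0.24, adjusted p = 0.172) did not overlap and were not called.

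The MHC-like genes went the other way. Cd1d1 (chromosome 3, 86995834 to 87012358) was at 462, 392, 344 and 253 CPM in Ctrl mice at 8 weeks and at 192, 155, 132 and 232 CPM at 20 weeks. It fell by 1.03 ± 0.25 (adjusted p = 0.00539), without overlap. Mr1 (chromosome 1, 155127874 to 155146814), which presents vitamin B metabolites to mucosal-associated invariant T cells, was at 38.9, 41.4, 39.4 and 41.2 CPM and then at 21.4, 22.4, 22.5 and 26 CPM. The ages did not overlap, and Mr1 fell by 0.80 ± 0.11 (adjusted p = 0.000118). H2-Ke6, a hydroxysteroid dehydrogenase (Hsd17b8) with no part in presentation, fell by 0.51 ± 0.13 (adjusted p = 0.00727), from 28.5, 32.8, 29.9 and 30.7 CPM to 20.3, 24.1, 21.3 and 20.1 CPM.

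Mature adipocyte markers fell over the same interval. Of 8 (Adipoq, Plin1, Lep, Cidec, Slc2a4, Pparg, Retn and Cfd) 6 fell in Ctrl mice and 6 in OE mice, and none was at 0 in a whole group. Their sum was 13759.7 to 17400.2 CPM in Ctrl and 10053 to 20390.6 CPM in OE libraries at 8 weeks, and 4251 to 8195 CPM and 6259.6 to 10495 CPM at 20 weeks. The TPM of Cd1d1 over that of Adipoq was 0.0808 to 0.115 in Ctrl libraries at 8 weeks and 0.105 to 0.134 at 20 weeks. Of 6 endothelial markers (Pecam1, Cdh5, Kdr, Tek, Tie1 and Cldn5) 5 fell in Ctrl and 0 were called in OE mice, with sums of 948 to 1239 and 940.3 to 1301 CPM at 8 weeks and 521 to 745 and 519 to 1073 CPM at 20 weeks. The part of either in the fall of Cd1d1 and Mr1 was not tested.

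**Figure D2:**
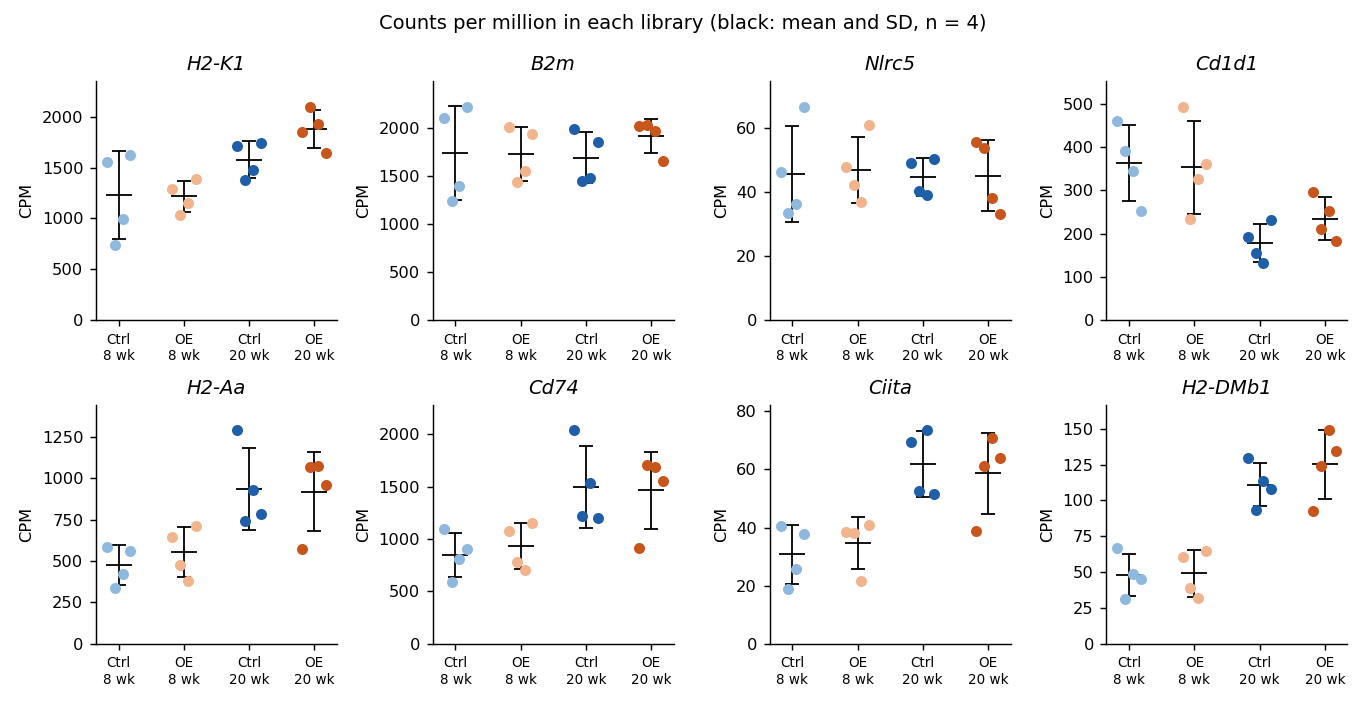
CPM of 4 class I or MHC-like genes (top row: H2-K1, B2m, Nlrc5, Cd1d1) and 4 class II genes (bottom row: H2-Aa, Cd74, Ciita, H2-DMb1) in each library, with the mean and SD of 4 libraries in black. The 4 Ctrl libraries at 20 weeks lie above those at 8 weeks for each class II gene, and below them for Cd1d1, whereas B2m and Nlrc5 overlap.

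In OE mice fewer members passed the test between the ages. By the same test, 3 were higher and 3 lower at 20 weeks, where 23% of all genes were called, 13.1% higher and 9.91% lower. The 3 that rose were H2-M2 (3.29 ± 0.37, adjusted p = 0.000179), H2-DMb1 (1.35 ± 0.25, adjusted p = 0.00202) and H2-K1 (0.63 ± 0.21, adjusted p = 0.0430). The 3 that fell were H2-Ke6 (-0.64 ± 0.13, adjusted p = 0.00337), Mr1 (-0.56 ± 0.11, adjusted p = 0.00231) and H2-M9 (-2.20 ± 0.74, adjusted p = 0.0442).

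H2-M2 was at 0.322, 0.700, 0.266 and 0.262 CPM in OE mice at 8 weeks and at 3.14, 5.01, 3.77 and 3.29 CPM at 20 weeks. H2-DMb1 was at 60.7, 39.1, 31.7 and 64.7 CPM and then at 92.9, 124, 149 and 135 CPM. Mr1 was at 41.7, 33.9, 40.1 and 43.4 CPM and then at 33.2, 24.9, 26.3 and 23.3 CPM. For each of these 3 genes the ages did not overlap, and OE library 1 at 20 weeks stood nearest to the 8-week values for H2-DMb1 and Mr1. H2-M9 went from 18, 38, 34 and 28 counts to 10, 2, 8 and 7 counts, without overlap in CPM, and its call was lost when any of 11 of the 16 libraries was left out (adjusted p 0.0506 to 0.125). H2-Ke6 was at 28.9, 30, 46.0 and 30.4 CPM and then at 23.7, 22.1, 21.3 and 19.8 CPM, with OE library 3 at 8 weeks far above the rest.

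H2-K1 was at 1291, 1038, 1147 and 1392 CPM in OE mice at 8 weeks and at 1847, 2100, 1931 and 1642 CPM at 20 weeks, without overlap. Its call was marginal: it was lost when any of 11 of the 16 libraries was left out (adjusted p 0.0515 to 0.114), 7 of them OE and 4 Ctrl at 20 weeks. H2-D1 was at 1902, 1556, 1747 and 2048 CPM and then at 2547, 2716, 2454 and 2114 CPM, a difference of 0.44 ± 0.16 (adjusted p = 0.0551) without overlap. DESeq2 (adjusted p = 0.0179) and limma voom (adjusted p = 0.0140) called H2-D1. So did edgeR without Ctrl library 1, 2 or 4 at 8 weeks (adjusted p 0.0396 to 0.0452). B2m was at 2006, 1439, 1548 and 1940 CPM and then at 2024, 2028, 1972 and 1655 CPM, a difference of 0.15 ± 0.19 (adjusted p = 0.602).

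The class II genes other than H2-DMb1 were not called in OE mice, with a median log2 change of 0.65 over the 11. H2-Aa was at 644, 478, 381 and 710 CPM and then at 573, 1070, 1075 and 957 CPM. Library 1 at 20 weeks lay among the 8-week values, and the other 3 lay above all of them. The difference was 0.73 ± 0.26 (adjusted p = 0.0567). H2-Ab1 was at 609, 398, 366 and 643 CPM and then at 531, 899, 934 and 825 CPM, with the same library low. Cd74 was at 1078, 785, 708 and 1154 CPM and then at 916, 1703, 1685 and 1548 CPM, a difference of 0.65 ± 0.25 (adjusted p = 0.0734). Ciita was at 38.5, 38, 21.5 and 41.0 CPM and then at 38.8, 61.1, 70.7 and 64.0 CPM, a difference of 0.75 ± 0.26 (adjusted p = 0.0509). Without OE library 1 at 20 weeks, H2-Aa, H2-Ab1, H2-Eb1, Cd74 and Ciita were called, with log2 changes from 0.83 to 0.92, and 8 members were higher in all. DESeq2 also called these 5, and gave 9 members higher. Over all genes, 3107 of 19688 were higher without OE library 1 at 20 weeks and 2913 of 19087 with DESeq2. With edgeR and every library kept, 2509 of 19189 were higher.

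H2-Oa, H2-Ob and H2-Eb2 had log2 differences of -0.21, -0.09 and -0.17 in OE mice, where 1 of the 6 B cell markers (Cd22) rose. Cd1d1 was at 494, 233, 326 and 361 CPM and then at 295, 210, 252 and 182 CPM, a difference of -0.59 ± 0.25 (adjusted p = 0.0963). DESeq2 (adjusted p = 0.0467) and limma voom (adjusted p = 0.0196) called Cd1d1 lower. EdgeR did so without OE library 2 at 8 weeks (adjusted p = 0.0368), or without it and Ctrl library 4 (adjusted p = 0.0223). The same held without OE library 1 at 20 weeks (adjusted p = 0.0488). Nlrc5, Tap1 and Psmb8 were at 36.9 to 60.9, 33.3 to 65.4 and 42.2 to 74.3 CPM at 8 weeks and at 33.2 to 55.6, 31.7 to 50.4 and 51.2 to 75.8 CPM at 20 weeks. The adjusted p of each was 0.627 or higher. A difference that passed in Ctrl and not in OE mice is not thereby shown to differ between the genotypes, and the interaction test is given next.

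**Figure D3:**
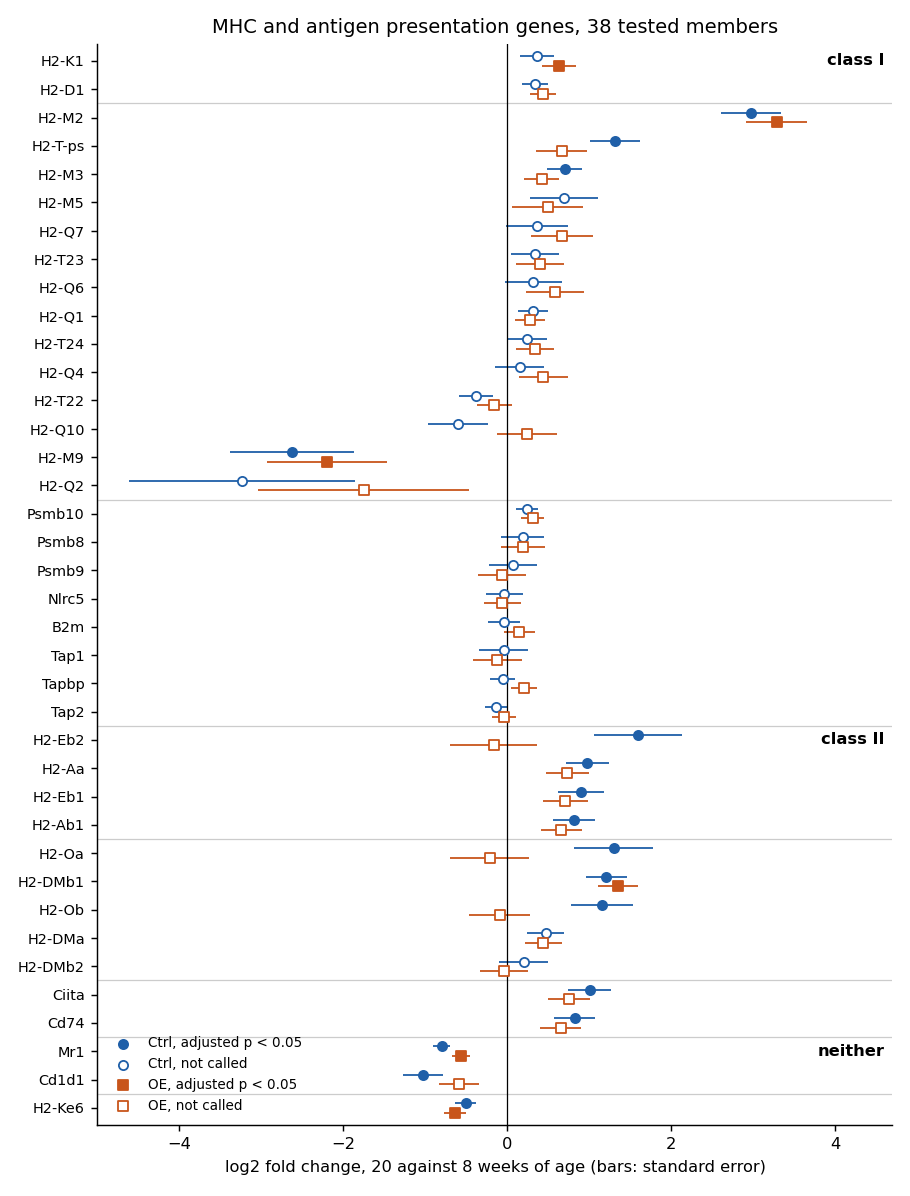
Log2 fold change of the 38 tested members between 20 and 8 weeks in Ctrl (circles) and OE (squares) mice, with the standard error as bars and filled symbols for an adjusted p under 0.05. In Ctrl mice 9 of 11 class II genes are filled to the right of 0, against 3 of 24 class I genes, and Mr1, Cd1d1 and H2-Ke6 are filled to the left.

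No member differed between OE and Ctrl mice past the threshold. By edgeR 0 of 38 were called at 8 weeks (0.0208% of all genes were), 0 at 20 weeks (0.0261%), 0 averaged over the ages (0.0365%) and 0 for the interaction of genotype and age (0%). At an unadjusted p under 0.05 there were 0, 3, 0 and 3 members. DESeq2 and limma voom called none either. At 8 weeks the smallest p among the 38 members belonged to H2-Ke6 in edgeR's test, with a log2 difference of 0.15 ± 0.13 (unadjusted p of 0.262, adjusted p = 1). At 20 weeks H2-Aa differed by -0.02 ± 0.26, H2-K1 by 0.25 ± 0.21 and B2m by 0.18 ± 0.19.

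The smallest unadjusted p at 20 weeks was that of H2-Ob, 0.00956 (log2 difference -1.14 ± 0.38, adjusted p = 0.996 by edgeR). H2-Eb2 at -1.40 and H2-Oa at -1.27 followed, with an unadjusted p of 0.0198 for each. H2-Ob was at 2.58, 3.98, 3.72 and 3.34 CPM in OE mice, below all 4 Ctrl values given above, and H2-Oa overlapped. Without Ctrl library 1 at 20 weeks the difference of H2-Ob was -0.43 and that of H2-Eb2 -0.83 (adjusted p = 0.984 for both). Averaged over the ages H2-Ob again had the smallest p, 0.0761 (log2 difference -0.51). For the interaction H2-Eb2 (-1.76 ± 0.75), H2-Ob (-1.25 ± 0.53) and H2-Oa (-1.51 ± 0.68) had p of 0.0337, 0.0338 and 0.0422 and an adjusted p of 0.982. These comparisons share the Ctrl libraries of 20 weeks. The B cell marker sums at 20 weeks, given above, were also lower in OE than in Ctrl libraries, and their part in these differences was not tested.

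The balance of the classes is summed up in the TPM of their chains. The class I chains added up to 4288 ± 1571 TPM in Ctrl and 4359 ± 576 in OE mice at 8 weeks, and to 5633 ± 499 and 6393 ± 609 TPM at 20 weeks (SD, n = 4). The 9 class II chains added up to 2253 ± 641 and 2513 ± 691 TPM at 8 weeks, and to 4461 ± 1113 and 4296 ± 1044 TPM at 20 weeks.

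As a percent of the class I chains, class II stood at 56.4, 54.4, 58.5 and 45.6 in Ctrl mice at 8 weeks and at 99.4, 70.9, 83.3 and 62.1 at 20 weeks. All 20-week Ctrl values lay above the 8-week ones, and class II summed over all chains stayed below class I in every library. From H2-Aa, H2-Ab1 and H2-Eb1 over H2-K1 and H2-D1 only, Ctrl library 1 at 20 weeks had a log2 ratio of 0.15. By that measure class II was above class I in this library and below it in the others. In OE mice the percentages were 64.2, 55.7, 43.8 and 63.9 at 8 weeks and 42.8, 69.7, 77.3 and 80.5 at 20 weeks. There the ages overlapped through library 1 at 20 weeks, the lowest of all 16. The mean log2 ratio of class II to class I moved by 0.54 with age in Ctrl mice (pooled SD 0.24) and by 0.22 in OE mice (pooled SD 0.35). Between the genotypes it moved by 0.07 at 8 weeks (pooled SD 0.22) and by -0.24 at 20 weeks (pooled SD 0.36), less than the spread between libraries. Leaving out 1 library at a time, the difference between the genotypes was -0.0039 to 0.19 at 8 weeks, where it turned sign without Ctrl library 4, and -0.35 to -0.04 at 20 weeks, where it was nearest to 0 without OE library 1. The difference with age in OE mice was 0.43 without OE library 1 at 20 weeks and 0.10 without OE library 3 at 8 weeks. These ratios are a description, with no test.

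**Figure D4:**
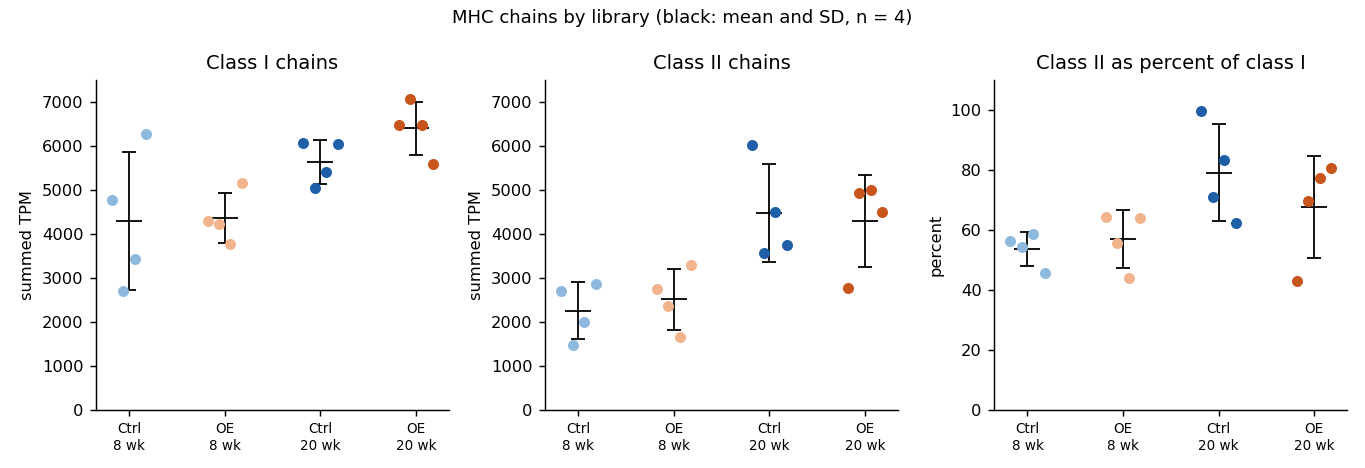
Summed TPM of the class I chains and of the class II chains, and class II as a percent of class I, in each library, with the mean and SD of 4 libraries in black. Class II as a percent of class I is 45.6 to 58.5 in Ctrl libraries at 8 weeks and 62.1 to 99.4 at 20 weeks, while OE libraries overlap.

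Ratios of coactivators and of proteasome subunits are given as descriptions. The TPM of Ciita over that of Nlrc5 was 0.640 to 1.05 in Ctrl and 0.658 to 1.08 in OE libraries at 8 weeks, and 1.18 to 2.26 and 0.860 to 2.31 at 20 weeks. Psmb10 over Psmb7, its constitutive counterpart, was 0.171 to 0.356 in Ctrl libraries at 8 weeks and 0.376 to 0.422 at 20 weeks. In OE libraries that ratio was 0.212 to 0.299 at 8 weeks and 0.347 to 0.443 at 20 weeks. Psmb7 fell by 0.45 in Ctrl mice (adjusted p = 0.00854), while Psmb10 had a log2 difference of 0.24 (adjusted p = 0.172). Psmb8 over Psmb5 and Psmb9 over Psmb6 overlapped between all groups.

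The proteases that prepare peptides for class II rose with age in both genotypes. Of 12 (the proteases Ctss, Ctsl and Lgmn, the thiol reductase Ifi30, the ubiquitin ligase March1, Rfx5, Rfxank, Rfxap, Creb1, Nfya, Nfyb and Nfyc), 6 rose and 1 fell in Ctrl mice, with a median log2 change of 0.78. Ctss, the cathepsin that trims the invariant chain, rose by 2.78 ± 0.36 (adjusted p = 9.98e-05), and Lgmn, the asparagine endopeptidase, by 2.53 ± 0.31 (adjusted p = 7.59e-05). Ifi30 rose by 2.19 and March1, which turns over surface class II, by 1.68. Of the factors that bind the X and Y letters, Rfx5, Rfxank and Rfxap were not called (0.31, -0.08 and 0.01), while Nfya rose by 1.43 and Nfyb fell by 0.35. In OE mice 6 of the 12 rose and 0 fell, Ctss by 2.45 and Lgmn by 1.80.

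The costimulatory genes Cd80, Cd86 and Cd40, whose products T cells need beside the MHC signal, rose in Ctrl mice (1.46, 0.73 and 1.09). In OE mice Cd40 rose (0.79, adjusted p = 0.0125), and Cd80 and Cd86 stood at 0.78 and 0.17 without passing. Of 7 other class I pathway genes, the chaperones Calr, Canx and Pdia3 rose in Ctrl mice by 0.48, 0.34 and 0.40. Tapbpl, a peptide editor, fell by 0.50, and Erap1, Psme1 and Psme2 were not called. None of these 7 was called in OE mice, where the lowest adjusted p was 0.0549.

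Interferon gamma is the classical inducer of Ciita and Nlrc5. Of 9 genes of its signal, Ifng did not pass the filter on low counts, and of the other 8 in Ctrl mice Ifngr2 (0.82) and Jak1 (0.26) rose while Gbp2 (-0.82) and Jak2 (-0.30) fell. Irf1 (0.04), Cxcl9 (-0.80), Cxcl10 (0.09) and Ifngr1 (-0.07) were not called. The median over the 8 was -0.01. In OE mice Ifngr2 alone rose (0.90, adjusted p = 0.00311).

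Macrophage markers rose with class II. All 10 (Adgre1, Cd68, Csf1r, Lyz2, Mrc1, C1qa, C1qb, C1qc, Mertk and Fcgr1) rose in Ctrl mice, with a median log2 change of 1.99, and 9 of 10 rose in OE mice, with a median of 1.43 and Mertk not called. Their summed TPM was 1854 to 3360 in Ctrl and 2330 to 5160 in OE libraries at 8 weeks, and 8164 to 13091 and 5421 to 12685 at 20 weeks, and none was at 0. The class II chain TPM was 0.793 to 1.11 times that sum in Ctrl libraries at 8 weeks and 0.316 to 0.488 times at 20 weeks. In OE libraries it was 0.457 to 1.19 times at 8 weeks and 0.388 to 0.573 times at 20 weeks. OE library 1 at 20 weeks, the lowest of its group for class II, was also the lowest of its group for the macrophage markers.

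**Figure D5:**
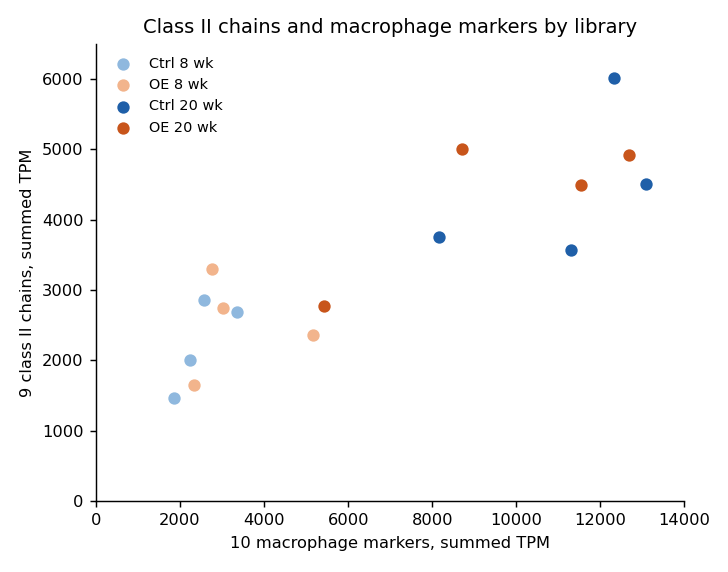
Summed TPM of the 9 class II chains against the summed TPM of 10 macrophage markers in each of the 16 libraries. The 20-week libraries lie to the right and above, from 5421 to 13091 TPM of macrophage markers and from 2765 to 6017 TPM of class II chains, against 1854 to 5160 and 1469 to 3294 TPM at 8 weeks.

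Dendritic cell markers were mixed. Of 10 in Ctrl mice, Itgax, Irf8, Clec10a, Batf3 and Clec9a rose and Cd209a fell by 1.53, with a median log2 change of 0.98, and Flt3, Zbtb46, Xcr1 and Ccr7 were not called. In OE mice Itgax and Irf8 rose and Cd209a fell by 1.10. Their sum was 133.6 to 218 CPM in Ctrl and 135.3 to 208 CPM in OE libraries at 8 weeks, and 504 to 708 and 364 to 831 CPM at 20 weeks. Of 7 T cell markers Cd28 rose in Ctrl mice and none was called in OE mice, and their sum was 5.89 to 17.2, 6.76 to 18.6, 11.4 to 44.5 and 6.49 to 17.8 CPM in Ctrl and OE mice at 8 weeks and Ctrl and OE mice at 20 weeks. The highest T cell sum, 44.5 CPM, was that of Ctrl library 1 at 20 weeks. None of these dendritic cell and T cell markers was at 0 in a whole group. The part of macrophages, dendritic cells or T cells in the class II result was not tested.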

How the data were processed

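RNA of 16 fat pads was sequenced as stranded mRNA libraries, per the labels' protocols. The submitters' processing notes name bcl2fastq 2.20.0, Trimmomatic, HISAT2 2.1.0, StringTie 2.1.3b and the mm10 genome. The strand setting and annotation of the counting were not given in the sources used here, so reads of overlapping genes may not be separable. The authors deposited 1 table with a read count, an FPKM value and a TPM value per gene and library. The counts are whole numbers, and counts from StringTie can be rounded estimates. The deposited TPM values served to compare levels between genes, and the deposited FPKM values were not used.

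Counts were tested with edgeR 4.0.16 in R 4.3.3 (filterByExpr with a minimum count of 10, TMM scaling, robust quasi-likelihood fit of the 4 groups with 12 residual degrees of freedom). Adjusted p-values follow Benjamini and Hochberg across the 19189 genes tested, with a threshold of 0.05. The standard error is the log2 fold change divided by the square root of the F statistic. The script was tested on simulated counts. The alternatives were DESeq2 1.42.0, limma 3.58.1 (voom with quality weights), upper quartile scaling, no filter, only the groups compared, a replicate block, 2 surrogate variables (sva 3.50.0), and leaving out single or sets of libraries. Figures were drawn with matplotlib 3.10.9. The limit of 3 counts for a count of 0 covers counting error only, whereas SD and standard errors include the spread between libraries.

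The genes, lists and tests were chosen with earlier results of these data known. One gene each of the B cell and interferon lists is not reported here and was left out of their counts and sums. By rule, library values are given for 11 genes (H2-K1, H2-D1, B2m, H2-Aa, H2-Ab1, H2-Eb1, Cd74, Ciita, Nlrc5, Tap1 and Psmb8), for members called between the genotypes, and for the 3 largest called rises and falls with age in each genotype. The member with the smallest p stands for each genotype comparison, and up to 4 called genes for each list. H2-Ob and other members or list genes beyond that rule were named after their values were seen.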

Additional observations from a re-analysis of the deposited data

Results flagged for a closer look

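Among 92 groups of 4 libraries tested, 8 held a library far from the other 3, and chance alone marks about 1 in 20 groups. In Ctrl mice at 20 weeks, library 1 had 16.1 CPM of H2-Ob against 4.28 to 4.90 in the others, and 4.08 CPM of H2-Eb2 against 1.11 to 1.61. This library also had the highest B cell marker sum, 106.5 CPM against 36.4 to 37.7 in the others. Its T cell marker sum was likewise the highest, 44.5 CPM against 11.4 to 14.7 in the others. In the same group library 4 had 2.18 CPM of H2-T-ps against 3.42 to 3.66. In OE mice at 20 weeks, library 4 had 1655 CPM of B2m against 1972 to 2028. At 8 weeks OE library 3 had 21.5 CPM of Ciita against 38 to 41 and 46.0 CPM of H2-Ke6 against 28.9 to 30.4. H2-M2 stood at 0.584 CPM in Ctrl library 1 at 8 weeks against 0.392 to 0.410, and at 0.700 CPM in OE library 2 at 8 weeks against 0.262 to 0.322, both far below its 20-week values.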

How the results depend on the processing

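In Ctrl mice the 12 members higher and 4 lower with age became 23 higher with limma voom, 19 without Ctrl library 4 and OE library 2 at 8 weeks, and 1 higher and 2 lower with 2 surrogate variables. The calls over all genes moved too. With every library kept edgeR called 3770 higher and 4083 lower of 19189, and limma voom 5151 and 5375. With 2 surrogate variables these were 1083 and 675. Without the libraries named they were 3984 and 4087 of 19229. In OE mice the 3 higher became 9 with DESeq2, 10 with limma voom, and 8 without library 1 of Ctrl at 8 weeks and of OE at both ages. Over all genes, the 2509 of 19189 higher in OE mice became 2913 of 19087, 3983 of 19189 and 3061 of 19519 in turn. Leaving out 1 library at a time gave 5 to 18 higher and 4 to 5 lower in Ctrl mice, and 2 to 8 higher and 2 to 4 lower in OE mice. The lowest number in Ctrl mice came without Ctrl library 2 at 8 weeks or Ctrl library 1 at 20 weeks, the highest without Ctrl library 4 at 8 weeks, and the highest in OE mice without OE library 1 at 20 weeks. Over all genes, the numbers higher in these fits were 3057, 3308 and 3816 in Ctrl mice and 3107 in OE mice. Fits that leave libraries out hold fewer samples, and the cause of these changes was not tested. A fit of only the 2 groups compared gives no interaction or average over the ages. No called direction reversed in the alternatives run. No member was called between the genotypes, or for the interaction, in any of them. Leaving out 1 library at a time, the log2 ratio of class II to class I moved with age by 0.42 to 0.65 in Ctrl and by 0.10 to 0.43 in OE mice. The replicate numbers did not pair the libraries throughout. Same-numbered Ctrl and OE libraries correlated, in their deviations from the group means, at 0.826 for number 1 at 8 weeks. The other such pairs were at -0.239 to 0.278, and same-numbered libraries of different ages at -0.571 to 0.0831. What Ctrl and OE library 1 at 8 weeks share was not tested. With the replicate block 9 members were higher and 4 lower in Ctrl mice, and 3 higher and 2 lower in OE mice. Over all 19189 genes that fit called 3384 higher and 3161 lower in Ctrl mice, and 2262 and 1548 in OE mice. The genotype differences of the log2 ratio of class II to class I ranged from -0.0039 to 0.19 at 8 weeks and from -0.35 to -0.04 at 20 weeks. The effect of depth or of the number of libraries was not tested.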

Other observations

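Of the 5 H2- symbols left out because the table does not class them as protein_coding, H2-K2, a transcribed pseudogene, rose with age in both genotypes, by 1.23 ± 0.27 on the log2 scale in Ctrl mice (adjusted p = 0.00296) and by 0.94 ± 0.27 in OE mice (adjusted p = 0.0210). H2-Q5 had differences of 0.48 (adjusted p = 0.344) and 0.81 (adjusted p = 0.156). H2-T10 had differences of -0.00 and 0.16 (adjusted p = 0.995 and 0.619), and 37.9% of the 50-base words of H2-T22 also occur in H2-T10.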
